A study of Mus musculus with 10 samples.

Results

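The genes of the cytosolic ribosome were described in bulk RNA-seq counts from 5 female and 5 male mice of the inbred strain C57/BL6, sampled at steady state. Marrow came from 1 hindlimb of each mouse and was depleted of lineage-positive cells on magnetic beads, which enriches for hematopoietic stem and progenitor cells. There was 1 library per mouse, the labels name no transgene or treatment, and age was not used here. Members were taken by symbol, as Rpl or Rps with a number and an optional paralog ending, or as Rplp0, Rplp1, Rplp2 or Rpsa, with genes named as pseudogenes left out. The pattern found 85 of the 25178 genes in the count table. Of these, 76 are canonical genes (46 of the large and 30 of the small subunit) and 7 are variant paralogs. The other 2, Rpl6l and Rpl32l, are annotated as processed pseudogenes under names without the pseudogene ending. Rps3a1, Fau and Rack1 also encode ribosomal proteins or proteins bound to the ribosome, but their symbols lie outside the pattern, and they are given separately.

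Each cytosolic ribosome joins a small subunit, which reads the messenger RNA, to a large subunit, which forms the peptide bond. Nearly every ribosomal protein is present in a single copy per ribosome, and the acidic stalk proteins Rplp1 and Rplp2, which recruit elongation factors, are the known exception. Most of these messenger RNAs begin with a C and a run of pyrimidines, the 5′ terminal oligopyrimidine (TOP) motif, through which mTOR and Larp1 control their translation. In human bone marrow, loss of 1 copy of genes such as RPS19, RPL5, RPL11, RPS26 or RPL35A causes Diamond-Blackfan anemia, and RPS14 lies in the region lost in the 5q- syndrome.

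The start of these transcripts was read from RefSeq promoter sequences (GRCm38.p6), which held an entry for 63 of the 85 members. A C at the annotated start (+1) followed by at least 4 bases that are each C or T, on the transcribed strand, was found at 13 of these 63 starts (20.6%). The same letters stood at 237 of 9813 other tested genes (2.42%) and at 491 of all 20595 promoters read (2.38%). A set of 6 members with the motif at +1 is shown to let the shared first letters of genes of both subunits be compared. The windows have 30 bases, from 10 before the start to 20 from it. Capitals mark the C of the motif and the pyrimidines that follow it. In these 6 windows pyrimidines also stand directly before the capitals, so the whole run begins before +1. Rps27l, the paralog of Rps27, and Rplp0, the core of the stalk, follow for contrast.
Rps6 (chr4:86857348-86857377, minus strand): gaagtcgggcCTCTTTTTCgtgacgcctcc
Rps18 (chr17:33955646-33955675, minus strand): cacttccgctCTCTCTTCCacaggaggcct
Rps27 (chr3:90213629-90213658, minus strand): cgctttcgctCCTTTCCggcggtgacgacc
Rpl15 (chr14:18270967-18270996, minus strand): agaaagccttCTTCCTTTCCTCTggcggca
Rpl35 (chr2:39005112-39005141, minus strand): ccgccctttcCTCTTTCTCTCgaaccaggc
Rplp2 (chr7:141447641-141447670, plus strand): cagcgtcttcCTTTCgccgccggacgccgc
Rps27l (chr9:66946076-66946105, plus strand): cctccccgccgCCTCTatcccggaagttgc
Rplp0 (chr5:115559457-115559486, plus strand): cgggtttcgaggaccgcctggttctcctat
In Rps27l the run began at +2, and Rplp0 had no such run within 10 bases of its annotated start. When the C of the motif was allowed to lie anywhere within 10 bases of +1, a match was found at 34 of the 63 members (54.0%) and at 3168 of the other tested genes (32.3%). A missing match says only that these letters are not at the annotated start. These RefSeq starts often differed from those of the main GENCODE transcripts, whose lengths are used below. They lay within 10 bases of them for 22 of the 63 members, with a median distance of 25 bases. For other tested genes it was 4456 of 9813, with a median of 15 bases. The start shown for Rpl35 lay 493 bases away.

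The count table held between 20754101 and 24759687 counts per library, and the 85 members took 25526337 of them over the 10 libraries, or 11.2%. The share of counts in ribosomal protein genes was 11.6%, 10.3%, 10.2%, 10.8% and 10.3% in female replicates 1 to 5, and 10.6%, 15.9%, 11.7%, 10.2% and 10.4% in male replicates 1 to 5. Male replicate 2 stood above every other mouse, and the other 4 males lay between 10.2% and 11.7%, over nearly the same range as the females. The mean share was 10.6% ± 0.594 in female mice and 11.8% ± 2.40 in male mice (SD, n = 5 each), and without male replicate 2 the 4 other males averaged 10.7% ± 0.654. The difference of -1.13 percentage points with all males, and of -0.0863 without that mouse, was smaller than the spread within males in both cases.

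Male replicate 2 also differed in the trend of its counts with transcript length. Over 14580 tested genes that are not members, the rank correlation of a library's deviation from the mean with transcript length was -0.586 in male replicate 2, and between -0.310 and 0.404 in the other 9. The members are short, with a median transcript of 729 bases in the 73 canonical members described below, against 2388 bases over all genes tested. Male replicates 1 and 2 further had the highest summed levels of the erythroid markers (52211 and 33469 CPM, with 8371 to 13358 CPM in female mice and 15381 to 27672 CPM in the other 3 males; 12 markers). The sums of this list did not overlap between the sexes. Taken singly, 5 of its 12 markers had all females below all males, as did 0.865% of all genes tested. Male replicates 1 and 2 were also highest for the 10 mature neutrophil markers (8729 and 2698 CPM, with 260 to 967 CPM in female mice and 211 to 1363 CPM in the other 3 males). The 8 megakaryocyte markers summed to 1404 to 1830 CPM in female mice and 1103 to 1324 CPM in male mice, also without overlap. Of all genes tested, 1.06% had all females above all males. How many of the 8 markers did so singly was not counted, so this describes the sum only. Sums of the other lists overlapped between the sexes, with 175 to 324 CPM in female mice and 208 to 651 CPM in male mice for 9 monocyte and macrophage markers, and 297 to 1487 CPM in females against 252 to 1701 CPM in males for 6 markers of stroma and endothelium. The 8 B lineage markers summed to 10.4 to 15.1 CPM in female mice and 14.001 to 42.9 CPM in male mice, and the 6 markers of T and natural killer cells to 2.04 to 4.42 CPM in females and 1.62 to 5.999 CPM in males. No marker of any list was at 0 in all libraries. The 12 stem and progenitor markers, which check the labelled cell type, lay at 3173 to 4665 CPM in female mice and 3793 to 4489 CPM in male mice. CPM are counts scaled by the TMM-adjusted library total. In bulk RNA a change in the mix of cells and a change in RNA per cell cannot be told apart, and the part of length trend and cell mix in the results below was not tested.

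**Figure D1:**
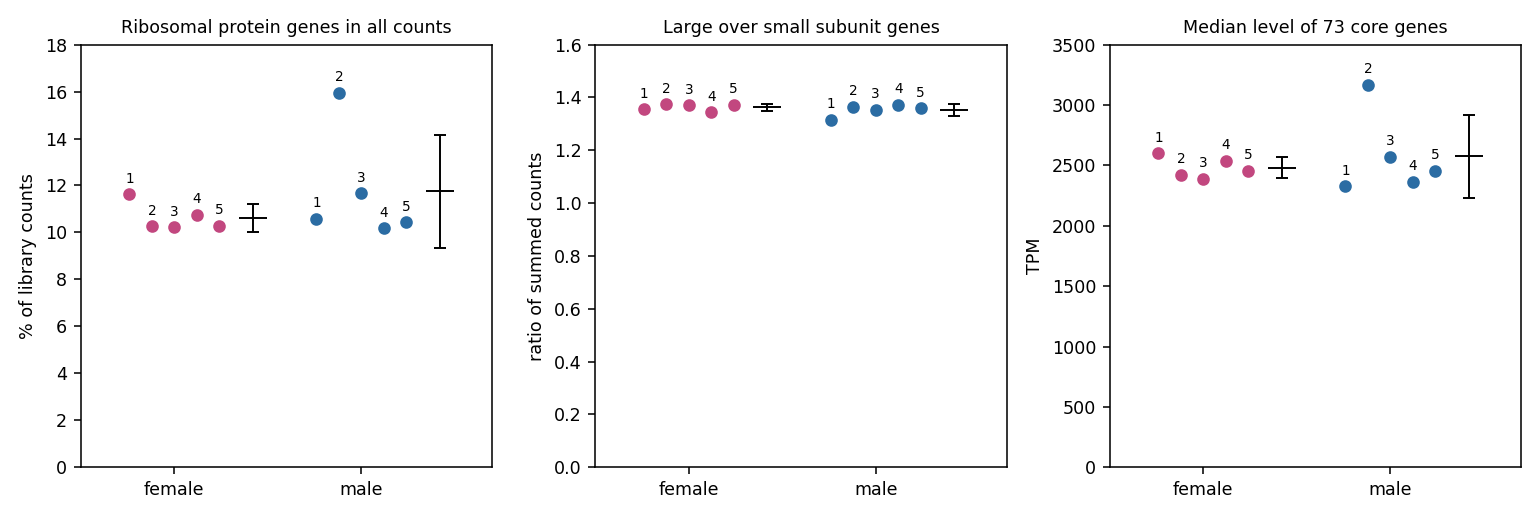
Each point is 1 mouse, numbered by replicate, females left of males; the bars give the mean and SD of 5 mice. The panels show the percentage of library counts in the 85 genes, the ratio of summed counts of large over small subunit genes, and the median TPM of 73 canonical genes. Male replicate 2 stands at 15.9% and 3167 TPM, above the other 9 mice, while its subunit ratio of 1.36 lies among the others.

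The balance of the subunits varied little. Summed counts of large subunit genes over those of small subunit genes came to 1.36, 1.37, 1.37, 1.34 and 1.37 in female replicates 1 to 5, and to 1.32, 1.36, 1.35, 1.37 and 1.36 in male replicates 1 to 5. The mean ratio was 1.36 ± 0.0130 in female mice and 1.35 ± 0.0219 in male mice (SD, n = 5 each), and the groups overlapped. Male replicate 1 had the lowest ratio, and without it the difference of the means was 0.00115, against 0.0105 with all mice. Male replicate 2, with the highest share of counts, lay in the middle. Per length and gene, small subunit genes were the higher. The median TPM of the large subunit genes was 0.868 ± 0.0219 times that of the small subunit genes in female mice and 0.855 ± 0.00761 times in male mice (SD, n = 5 each), over 44 and 29 genes. TPM are counts per kilobase of the main GENCODE transcript, scaled to the same total in each library over all genes with a length.

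How closely the canonical genes lay together in level per kilobase depended on the length used. Of the 76, 3 were set aside because over 50% of their exon bases also belong to another annotated gene on the same strand, which leaves 73. Their mean TPM over the 10 mice had a median of 2494, and 63 of the 73 lay within 2-fold of it. The 90th percentile was 2.62 times the 10th. With coding length in place of transcript length, 69 of the 73 lay within 2-fold of a median of 2572. With merged exon length it was 52 of the 73 around a median of 1682, and the 90th percentile was 4.67 times the 10th. Of the 100 genes of highest TPM in the whole table, 60 were members.

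The highest levels per kilobase were those of Rplp1, Rps2, Rps12, Rplp0 and Rpl8. Rplp1 of the stalk had 8271 ± 572 TPM in female mice and 7972 ± 1097 TPM in male mice (SD, n = 5 each). Rps2, near the entry of the messenger RNA channel, had 7396 ± 361 TPM in females and 7163 ± 701 TPM in males. Rps12 had 7025 ± 304 TPM in females and 6900 ± 621 TPM in males. Rplp0, which anchors the stalk, had 5627 ± 405 TPM in females and 5220 ± 470 TPM in males, and Rpl8 5186 ± 190 TPM in females and 4970 ± 481 TPM in males. The ranges of 1 SD around the mean overlapped in both sexes between Rplp1 and Rps2 and between Rps2 and Rps12. They also overlapped between Rplp0 and Rpl8, but not between Rps12 and Rplp0. These are spreads between mice, and the genes share the same libraries, so overlap does not decide their order within a mouse.

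The transcripts of the stalk proteins differed in level. Rplp1 was at 1.47 ± 0.0332 times the TPM of Rplp0 in female mice and 1.53 ± 0.163 times in male mice (SD, n = 5 each), with male replicate 2 highest at 1.78. Rplp2, its partner in the stalk dimers, was at 0.733 ± 0.0129 times the TPM of Rplp0 in females and 0.767 ± 0.0622 times in males. Rpl5 and Rpl11 bind 5S ribosomal RNA together and, when free, the p53 regulator Mdm2. Rpl5 averaged 1257 ± 69.8 TPM in females and 1324 ± 159 TPM in males, and Rpl11 averaged 2374 ± 95.8 TPM in females and 2529 ± 493 TPM in males (SD, n = 5 each). With merged exon length the means over the 10 mice were 1042 TPM for Rpl5 and 1172 TPM for Rpl11.

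Among the lowest canonical genes, the length used for a gene decided much of its place. Rps20 had the lowest TPM of the 73, at 531 ± 31.0 in female mice and 552 ± 79.5 in male mice (SD, n = 5 each). Its main transcript in the annotation has 3706 bases, of which 357 are coding, and per coding length it reached 3510 TPM, above the median. Rpl41, which encodes the smallest ribosomal protein, had 3908 TPM per transcript length, but 14222 per coding length, the highest of the 73, since only 75 of its 437 bases are coding. Rpl35 came next to Rps20, at 925 ± 32.8 TPM in females and 992 ± 243 TPM in males. By coding length Rpl22 was lowest, at 1308 TPM.

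Rps10, Rpl24 and Rpl13a lay far below the rest, and each overlaps another gene on its own strand. Rps10 (chromosome 17: 27630418 to 27636669, minus strand) had 0.970, 1.78, 1.28, 1.07 and 1.56 CPM in female mice and 0.671, 1.14, 1.88, 0.882 and 0.892 CPM in male mice. The read-through gene RPS10-NUDT3 covers 91.6% of its exon bases. Rpl24 (chromosome 16: 55966275 to 55971435, plus strand), with 71.5% of its exon bases in Gm28037, lay between 0.495 and 1.16 CPM in female mice and between 0.561 and 1.45 CPM in male mice. Rpl13a (chromosome 7: 45125558 to 45128761, minus strand), with 59.3% in Gm45713, had 65.4 to 74.3 CPM in female mice and 68.3 to 156 CPM in male mice. In TPM they stood 675-fold, 1466-fold and 22.2-fold below the median of the 73. A read over bases of 2 genes can be left uncounted by a counter, and no source used here states the setting, so these 3 levels are uncertain. The paralog Rpl36al, with 63.1% of its exon bases in Gm49383, shares that limit.

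**Figure D2:**
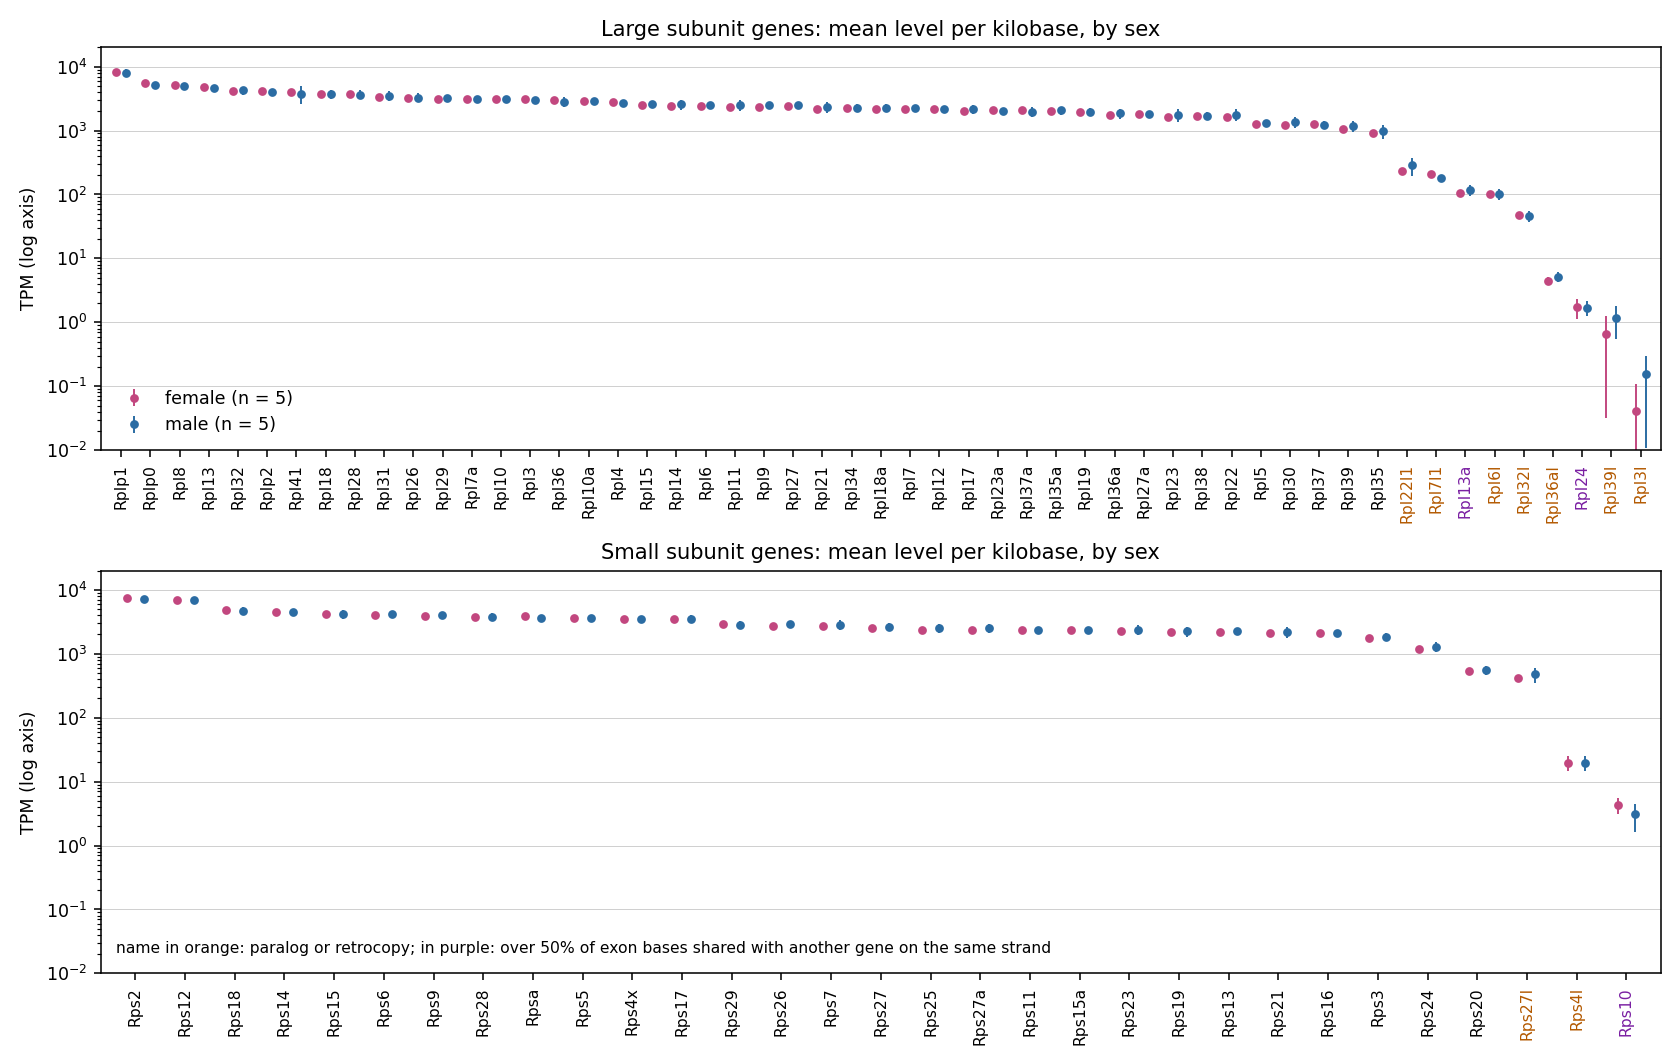
Mean TPM on a log axis of the 53 large subunit members and 31 of the small subunit, in order of the mean over 10 mice, females (left point of each pair) and males (right point), with bars of 1 SD (n = 5 each; a bar that passes 0 runs to the foot of the axis). The canonical genes form a plateau around 2494 TPM, and the paralogs and retrocopies (names in orange) and the strongly overlapped genes (names in purple) lie below it.

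Reads of these genes are also hard to place because of copies elsewhere. At least 1 stretch of 100 bases of the main transcript recurs in a transcript of another gene for 76 of the 85 members, with a median of 41.4% of the stretches. The table holds 176 rows for pseudogenes named after 46 of the members, and those rows hold counts equal to 4.96% of the members' own. Adding them to their parent genes moved the median of the 73 to 2587 TPM and put Rps2 above Rplp1. The levels of Rps12, with 20 such rows, and of Rps2, with 9, are uncertain at least to that extent. Copies under other names are not covered by these rows. Rpl11, for example, shares such stretches with 7 genes but has 0 rows named after it.

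Of the variant paralogs, 3 were transcribed at a level that can be set beside the canonical gene. Rps27l is a paralog of the small subunit gene Rps27 and a known target of p53 in human cells. Their coding sequences, with the stop codon, have the same length of 255 bases and differ at 61, which are in capitals in both lines and show how well reads of the pair can be told apart (GENCODE vM21 transcripts).
Rps27l: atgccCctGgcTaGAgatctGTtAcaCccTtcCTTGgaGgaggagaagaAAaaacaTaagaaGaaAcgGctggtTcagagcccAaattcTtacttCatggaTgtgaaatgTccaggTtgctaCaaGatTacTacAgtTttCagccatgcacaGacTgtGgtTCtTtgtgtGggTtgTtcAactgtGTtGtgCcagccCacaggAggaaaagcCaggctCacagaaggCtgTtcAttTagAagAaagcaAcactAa
Rps27: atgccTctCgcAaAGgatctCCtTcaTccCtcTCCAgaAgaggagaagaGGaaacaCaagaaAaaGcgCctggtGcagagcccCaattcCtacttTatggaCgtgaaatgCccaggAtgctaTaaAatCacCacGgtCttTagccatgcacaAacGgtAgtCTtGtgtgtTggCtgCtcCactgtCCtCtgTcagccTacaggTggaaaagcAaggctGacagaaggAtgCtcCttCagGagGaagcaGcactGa
Per kilobase, Rps27l made up 11.996%, 14.9%, 15.7%, 14.6% and 14.1% of the pair in female replicates 1 to 5 and 15.96%, 17.6%, 14.1%, 13.5% and 14.4% in male replicates 1 to 5. The sexes overlapped, and male replicates 1 and 2 had the highest values. The mean share was 14.3% ± 1.40 in female mice and 15.1% ± 1.65 in male mice (SD, n = 5 each).

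Rpl22l1 is the paralog of Rpl22, which binds RNA and is known in mice for its role in T cell development. It made up 12.6% ± 0.787 of its pair in female mice and 13.6% ± 1.48 in male mice (SD, n = 5 each), with male replicates 1 and 2 highest at 14.9% and 15.4%. Their coding sequences are 68.2% identical, and the longest identical stretch is 26 bases. Rpl7l1, the paralog of the large subunit gene Rpl7, made up 8.72% ± 0.503 of its pair in females and 7.51% ± 1.04 in males, with male replicate 2 lowest at 5.80% and the groups overlapping. The coding sequences of this pair are 54.0% identical with no identical stretch over 10 bases.

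Rpl7l1 was hardly higher in male replicate 2, where the canonical genes stood apart. It had 174, 169, 165, 168 and 169 CPM in female replicates 1 to 5 and 174, 192, 175, 144 and 156 CPM in male replicates 1 to 5. In male replicate 2 it was at 1.14 times the median of the other 9 mice, whereas the 73 canonical genes were at 1.37 to 2.34 times theirs. Its log2 fold change of females against males was 0.0050 (SE 0.09, edgeR adjusted p = 0.981), and 0.06 without male replicate 2.

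The other paralogs were rare. Rps4l, a transcribed processed pseudogene in the annotation, made up 0.553% ± 0.133 of its pair with the X-linked Rps4x over 10 mice. Rpl36al made up 0.272% ± 0.0523 of its pair with Rpl36a, beside the overlap given above. Rpl39l, known from mouse testis, had 78 counts over the 10 libraries and between 1 and 19 in single ones. It made up 0.0606% ± 0.0558 of its pair with Rpl39 in female mice and 0.101% ± 0.0518 in male mice (SD, n = 5 each). The 156 coding bases of this pair differ at 23, in capitals below, and the longest identical stretch is 38 bases. A read wholly within that stretch, so of at most 38 bases, cannot be assigned within the pair.
Rpl39l: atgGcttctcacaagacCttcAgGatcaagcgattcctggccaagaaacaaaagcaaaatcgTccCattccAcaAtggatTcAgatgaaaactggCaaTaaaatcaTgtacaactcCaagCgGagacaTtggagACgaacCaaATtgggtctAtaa
Rpl39: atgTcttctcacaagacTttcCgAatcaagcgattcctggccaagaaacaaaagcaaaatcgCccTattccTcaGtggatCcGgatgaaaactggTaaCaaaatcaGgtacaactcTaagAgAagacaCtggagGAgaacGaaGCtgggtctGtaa
Rpl3l, the paralog of Rpl3 in striated muscle, had 22 counts over the 10 libraries, with 0 in 4 of them and at most 9 in 1. In those 4 libraries a count of 0 allows a level of up to 0.146 CPM, for counting error only. The retrocopies Rpl6l and Rpl32l made up 3.92% ± 0.308 and 1.12% ± 0.109 of their pairs with Rpl6 and Rpl32 over 10 mice, and these pairs were added after their rows were seen. Over their length Rpl6l is 98.7% and Rpl32l 96.0% identical to the coding sequence of the parent gene, so their counts may hold reads of the parent.

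**Figure D3:**
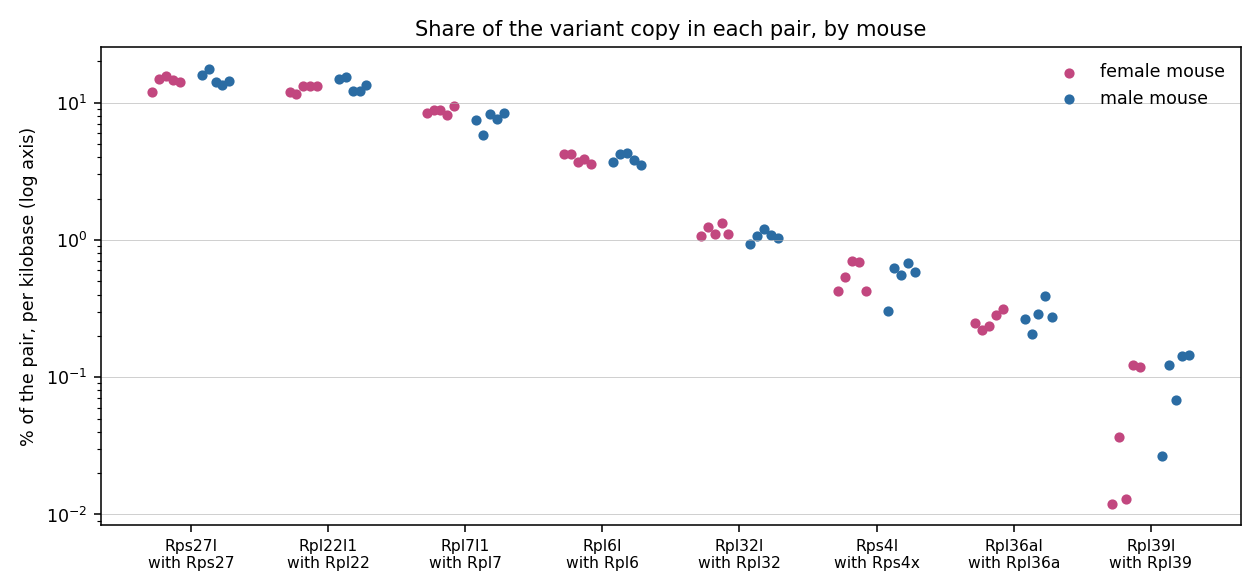
Share of the variant copy in the summed counts per kilobase of each pair, on a log axis, for each mouse, females left of males; Rpl3l, at 0 in 4 libraries, is left out. Shares run from about 14.7% for Rps27l to 0.0809% for Rpl39l, and the sexes overlap in every pair shown.

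Between the sexes, 0 of the 83 members tested were called by edgeR's quasi-likelihood test at an adjusted p under 0.05, where 0.0545% of all 14674 genes tested were called. Of the members 0 also had an unadjusted p under 0.05, against 9.17% of all genes, and DESeq2 called 0, against 0.361% of all genes, and put 2 under an unadjusted p of 0.05, against 10.9%. Rpl3l and Rpl39l were too low to be tested. The log2 fold change of females against males was below 0 for 81 of 83 members, against 52.0% of all genes tested, with a median of -0.25 over the members and -0.01 over all genes. The smallest adjusted p was 0.506. For 0 members did all females lie below all males, against 0.865% of all genes, and for 0 did all lie above, against 1.06%.

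That median rested on male replicate 2. This mouse had the highest CPM of the 10 for 82 of the 83 members, against 29.8% of all genes tested, and Rps10, whose highest value was in male replicate 3, was the exception. Without male replicate 2 the median over the members was -0.06, with 74 of 83 below 0 against 50.6% of all genes in that fit. With offsets for each library's trend on transcript length, all 10 libraries gave a median of -0.06 as well, and 66 members lay below 0 and 17 above, against 51.5% of all genes below 0. With male replicates 1 and 2 both left out the median was -0.05, and 77 of 84 members lay below 0 against 50.4% of all genes. Without male replicate 1 the median was -0.30, with 0 members at an unadjusted p under 0.05 against 6.4% of all genes, and without male replicate 3 it was -0.27, with 1 member against 9.31%. Without male replicate 4 or 5 the median was -0.32 in both fits, with 16 and 18 members at an unadjusted p under 0.05 against 15% and 15.3% of all genes. In the fit of all mice, large and small subunit genes had medians of -0.26 over 46 and -0.25 over 30 canonical genes.

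**Figure D4:**
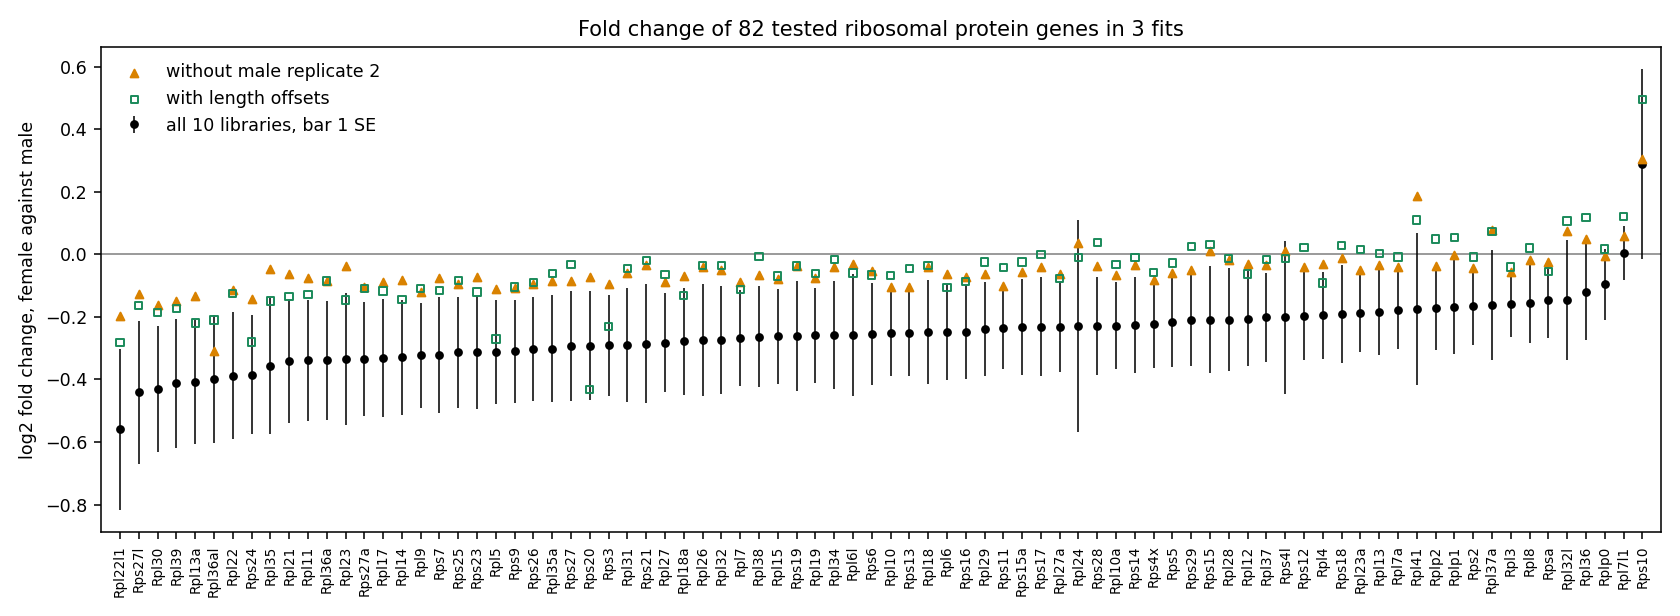
log2 fold change of females against males for 82 of the tested members, in order of the fit of all 10 libraries (black points, bars of 1 SE), with the fit without male replicate 2 (triangles) and the fit with length offsets (squares). The black points lie around a median of -0.25 and both other fits around -0.06; Rps20, with a main transcript of 3706 bases, is lower with the offsets, at -0.43.

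The lowest fold change was that of Rpl22l1. It had 80.1, 71.7, 81.1, 91.5 and 78.7 CPM in female replicates 1 to 5, against 122, 224, 90.8, 75.8 and 82.1 CPM in male replicates 1 to 5. Male replicates 1 and 2 lay above all females, and the other 3 males lay among them. Its log2 fold change was -0.56 (SE 0.26, edgeR adjusted p = 0.506), and it was -0.20 when male replicate 2 was left out and -0.04 when both high males were. The next lowest were Rps27l (-0.44), Rpl30 (-0.43), Rpl39 (-0.41) and Rpl13a (-0.41), each with an adjusted p of 0.506. At the upper end stood Rps10 (0.29, SE 0.30, edgeR adjusted p = 0.635), at about 1 CPM, and Rpl7l1. Rplp0 (-0.10), Rpl36 (-0.12) and Rpl32l (-0.15) followed.

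Genes whose human counterparts are tied to marrow failure were not called either, where 0.0545% of all genes tested were called. Rps19 had 1008, 847, 843, 822 and 835 CPM in female replicates 1 to 5, against 845, 1644, 1020, 826 and 883 CPM in male replicates 1 to 5. The groups overlapped, with male replicate 2 highest, and the log2 fold change was -0.26 (SE 0.18, edgeR adjusted p = 0.520). Rpl11 had 1170 to 1369 CPM in female mice and 1179 to 2607 CPM in male mice (-0.34), and Rpl5 1489 to 1797 CPM in female mice and 1578 to 3026 CPM in male mice (-0.31). Rps14, with 1585 to 1858 CPM in female mice and 1575 to 2940 CPM in male mice, gave -0.23, Rps26 gave -0.30 and Rpl35a gave -0.30. Rps6, the substrate of the kinase below mTOR that is often used as its readout, had 2082 to 2529 CPM in female mice and 2163 to 4051 CPM in male mice (-0.26). Rpsa, which is also known as a laminin receptor and whose human gene is mutated in isolated congenital asplenia, had 3601 to 4454 CPM in female mice and 3750 to 5617 CPM in male mice (-0.15). Without male replicate 2 these 8 values lay between -0.11 and -0.02.

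Of the 4 X-linked canonical members 0 were called, where 0.0545% of all genes tested were called. At that share, 0 calls among 4 genes says little about them. Rps4x had 2460, 2045, 2025, 2281 and 1993 CPM in female replicates 1 to 5, against 2642, 3458, 2331, 2115 and 2071 CPM in male replicates 1 to 5. The groups overlapped, and the log2 fold change was -0.22 (SE 0.14, edgeR adjusted p = 0.511). Human RPS4X escapes X inactivation and has a Y-linked partner, which mice lack. Rpl10, which is added late to the large subunit, gave -0.25, Rpl36a -0.34 and Rpl39, at the exit tunnel, -0.41. Without male replicate 2 the 4 values lay between -0.15 and -0.08.

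The 73 canonical genes rose together in male replicate 2, and that mouse set much of their spread. The SD of log2 CPM over the 10 mice had a median of 0.29 over the 73 canonical genes and of 0.12 without male replicate 2. For the 287 other tested genes whose level lay above that of the lowest of the 73, the medians were 0.17 and 0.12. Once each gene was taken as a share of the summed counts of the 73 canonical genes, its SD on the log2 scale had a median of 0.07. That SD is over all 10 mice, and none without male replicate 2 is given here. Rps16, Rpl10a, Rpl15 and Rpl19 were among those that followed the sum most closely, with an SD of at most 0.03. Rps16 had 1690, 1406, 1406, 1420 and 1390 CPM in female replicates 1 to 5 and 1566, 2526, 1696, 1411 and 1477 CPM in male replicates 1 to 5.

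Rpl41, Rpl39, Rpl30, Rpl22 and Rplp0 departed from the sum most. Rpl41 had 1093, 1051, 1098, 1151 and 1089 CPM in female replicates 1 to 5, against 799, 2340, 991, 992 and 1069 CPM in male replicates 1 to 5. Male replicate 1 was lowest and male replicate 2 highest, and its share had an SD of 0.23 on the log2 scale. Rplp0 had 5682, 4653, 4664, 4474 and 4438 CPM in female replicates 1 to 5 and 4588, 6358, 4998, 4647 and 4963 CPM in male replicates 1 to 5. In male replicate 2 it stood at 1.37 times the median of the other 9 mice, the least of the 73. Of the members used as reference genes in quantitative PCR, Rplp0 had an SD of log2 CPM over the 10 mice of 0.17, Rps18 of 0.26 and Rpl13a of 0.37. Without male replicate 2 these SDs were 0.11, 0.12 and 0.12. The level of Rpl13a is uncertain because of the same-strand overlap given above, and its SD shares that limit.

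The composition of the family shifted in male replicates 1 and 2. In male replicate 2, 26 of the 73 genes had a share over 10% away from their mean over the 10 mice, and in male replicate 1 there were 20, against 0 to 4 in each of the other 8 mice. The shifts ran with the base composition of the transcripts in several mice. The rank correlation across the 73 genes of the deviation with GC content was 0.466, 0.425, 0.573, -0.616 and 0.623 in female replicates 1 to 5 and -0.672, -0.310, 0.358, 0.203 and 0.578 in male replicates 1 to 5. These are descriptions across genes of 1 library each, the genes share depth and library, and the part of base composition was not tested. Each deviation is also taken from the mean over the same 10 mice. A strong trend in some mice therefore pushes the others the opposite way, and the values are not separate observations. In male replicate 1 the shares of Rpl41 and of the GC-rich Rpl36 and Rpl28 were lowest, by 0.47, 0.29 and 0.23 below their means on the log2 scale.

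**Figure D5:**
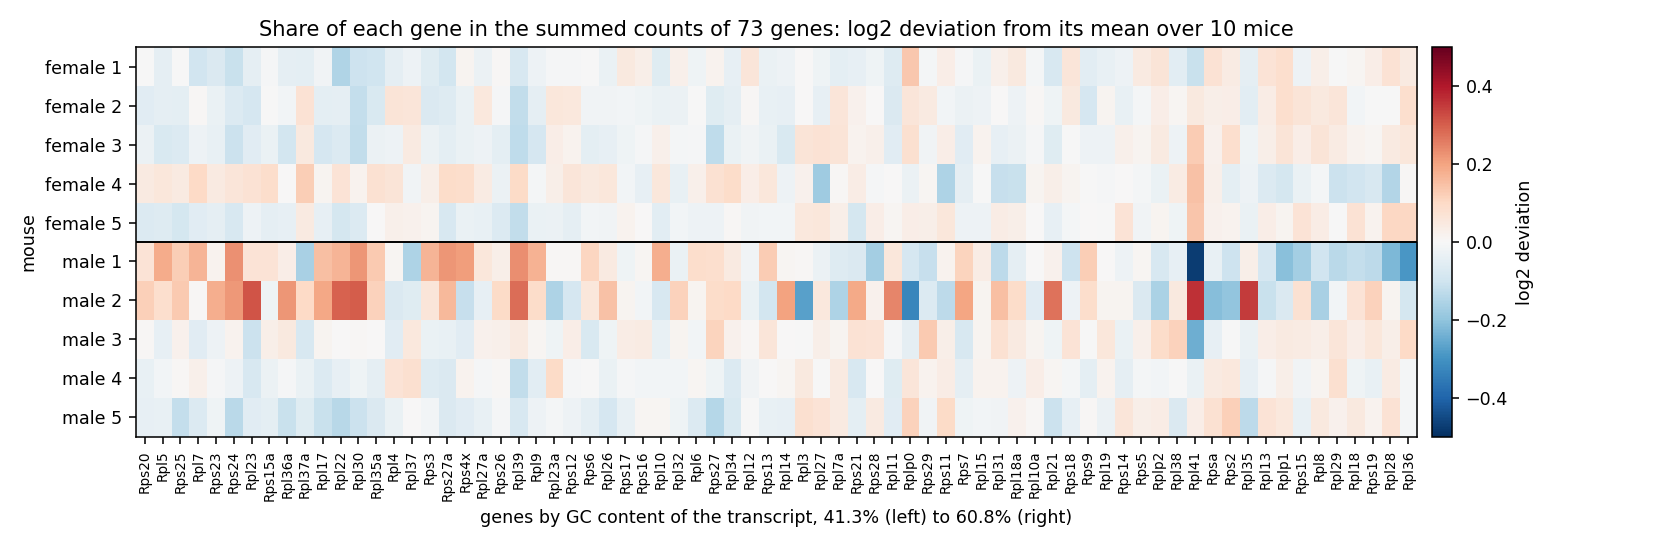
Each cell is the log2 deviation of a gene's share of the summed counts of 73 canonical members from its mean over the 10 mice, for 72 of the genes; rows are mice, females above males, and columns are genes by GC content of the main transcript, from 41.3% to 60.8%. Male replicates 1 and 2 hold the strongest colours, and Rpl41 runs from -0.47 in male replicate 1 to 0.37 in male replicate 2.

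Rps3a1 had 2075 ± 183 CPM in female mice and 2550 ± 824 CPM in male mice, and Fau, a ubiquitin-like fusion to Rps30, 892 ± 74.2 CPM in female mice and 1079 ± 335 CPM in male mice (SD, n = 5 each). Rack1, a scaffold on the small subunit, had 2640 ± 250 CPM in female mice and 2902 ± 406 CPM in male mice. All 5 genes of this list had a fold change below 0, against 52.0% of all genes tested, and 0 were called, against 0.0545%. Their median was -0.27, and -0.06 without male replicate 2. The retrogene Rps27rt had the smallest p of them (-0.42, edgeR adjusted p = 0.506).

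Of 17 other TOP messenger RNAs, mostly for translation factors, 0 were called and 14 lay below 0, against 0.0545% and 52.0% of all genes tested. Their median was -0.14, which was -0.06 without male replicate 2. Eef2, the factor of translocation, had 6975 ± 625 CPM in female mice and 6349 ± 1118 CPM in male mice (0.14), with male replicate 2 lowest at 5190 CPM. Btf3, a subunit of the nascent chain complex, had 573 ± 14.6 CPM in female mice and 742 ± 251 CPM in male mice (-0.37), with male replicate 2 highest at 1179 CPM.

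The 45 genes of ribosome assembly and RNA polymerase I had 26 fold changes above 0 and 19 below, where 52.0% of all genes lay below 0. Of these genes 0 were called (0.0545% of all genes) and 3 had an unadjusted p under 0.05 by edgeR (9.17% of all genes). Their median was 0.07, and it was 0.03 without male replicate 1 and 0.09 without male replicate 2. Nop2, which methylates the large ribosomal RNA, had 167 ± 5.47 CPM in female mice and 145 ± 16.2 CPM in male mice (0.21, edgeR adjusted p = 0.506). Polr1b, a core subunit of RNA polymerase I, had 148 ± 4.49 CPM in female mice and 117 ± 27.2 CPM in male mice (0.33, adjusted p = 0.506). Among 17 genes that control TOP translation or watch over ribosomes, 13 lay above 0 and 4 below, where 52.0% of all genes lay below 0. Their median was 0.15, which was 0.04 without male replicate 2, and 0 were called, against 0.0545% of all genes. With length offsets 11 lay above 0 (median 0.08), and 10 did without male replicates 1 and 2 (median 0.01). In those fits 51.5% and 50.4% of all genes lay below 0. Myc, which drives ribosome production, had 204 ± 13.8 CPM in female mice and 169 ± 18.8 CPM in male mice (0.27, SE 0.09, unadjusted p = 0.0122, adjusted p = 0.506 by edgeR).

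The 77 genes of the mitochondrial ribosome, which translates the messages of the organelle, were the nearest list in size. Of these, 74 lay below 0, against 52.0% of all genes tested, and 0 were called, against 0.0545%. Their median was -0.20, and it was -0.05 without male replicate 2 and -0.09 with length offsets. Their summed level was 7380 CPM in male replicate 2, with 4403 to 4566 CPM in female mice and 4236 to 5042 CPM in the other 4 males. Mrps9, named because its p was the smallest of the 77, had 47.3 ± 0.734 CPM in female mice and 59.7 ± 12.6 CPM in male mice (SD, n = 5 each, log2 fold change -0.33, edgeR adjusted p = 0.506). All 5 females lay below all 5 males for this gene, as for 0.865% of all genes tested.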

How the data were processed

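Bulk RNA-seq of lineage-depleted bone marrow was analysed from 5 female and 5 male mice, 1 library each. The deposited raw counts per gene were made with STAR and featureCounts on GRCm38.p6 or mm10, per the submitters' processing notes, with versions, strand setting and handling of reads with several hits stated nowhere in the sources used here. A second deposited table holds these counts divided by a size factor per library, a normalized signal that the authors made with DESeq, per the submitters' processing notes; it was used only to read those factors. Libraries held 20754101 to 24759687 counts, and intervals and floors cover counting error only.

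Genes were matched by identifier to GENCODE vM21 (25116 of 25178 genes), which gave transcript lengths for TPM, exon overlap and shared stretches of 100 bases. Genes kept by filterByExpr (14674) were tested with edgeR 4.0.16 (TMM scaling, robust quasi-likelihood test, sex as the only term, R 4.3.3) and Benjamini-Hochberg adjustment, called at an adjusted p under 0.05. The procedure was tested on simulated data. Alternatives were DESeq2 1.42.0, other scalings and filters, lowess offsets on transcript length (span 0.5), a replicate block and leaving out libraries. Coding sequences were aligned with Biopython 1.88. The marker lists, gene lists and members were chosen with earlier results of these data known. Genes named are the 5 at either end of level, fold change and spread of share, all paralog pairs, the X-linked canonical members, a set chosen by name, and in the other lists up to 2 of smallest p in each direction; Fau and Rack1, and the genes given for shifts in single mice, were named after their values were seen. The labels give 1 library per mouse, so p-values measure the spread between mice. The size-factor table is no independent measurement. Some genes are not reported here by name.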

Additional observations from a re-analysis of the deposited data

Results flagged for a closer look

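In groups of 5 mice, a mouse was marked when its gap to the nearest other mouse exceeded 0.71 of the group's range. Of 108 groups examined, 26 were marked, where chance marks about 1 in 20, and the genes are not independent of each other. Male replicate 2 was the high mouse in 17 of the 26, and female replicate 1 in the rest. The share of counts in ribosomal protein genes had a gap of 0.742 of the range of the males, set by male replicate 2.

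For log2 CPM in males, the gap of male replicate 2 was 0.794 for Rpl35, 0.781 for Rpsa, 0.775 for Rpl26, 0.767 for Rpl11, 0.764 for Rpl13a, 0.755 for Rpl32, 0.755 for Rpl15 and 0.752 for Rps14. It was 0.750 for Rps26, 0.746 for Rpl10a, 0.746 for Rps20, 0.738 for Rplp0, 0.731 for Rps6, 0.730 for Rpl41, 0.722 for Rpl6 and 0.711 for Rpl36a.

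For log2 CPM in females, the gap of female replicate 1 was 0.889 for Rps16, 0.848 for Rps19, 0.834 for Rpl32, 0.813 for Rplp2, 0.799 for Rplp0, 0.799 for Rpl36, 0.790 for Rpl8, 0.754 for Rpl3 and 0.745 for Rpsa. Female replicate 1 had the highest share of counts of the females, at 11.6%.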

How the results depend on the processing

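No ribosomal protein gene was called under the alternatives run, so no call of theirs could be lost. Over all genes, edgeR called 8. DESeq2 called 53, the fit with the replicate block 5 and the fit with length offsets and the replicate block 5; leaving out single libraries gave 6 to 10. Same-numbered mice did not deviate together over the genes tested (r from -0.30 to -0.01), which gave no sign that the numbers pair them. A shared effect smaller than the shifts of single mice would not show in this check. The median log2 fold change of the members was -0.21 with the replicate block and -0.05 with length offsets and the block, and leaving out single libraries moved it between -0.32 and -0.06. The difference in share of counts ran from -1.53 to -0.0863 percentage points, the difference in subunit ratio from 0.00115 (male replicate 1 left out) to 0.0153, and the median SD of log2 CPM over the members from 0.12 to 0.31, without 1 library each. The median level per kilobase was 1682 TPM with merged exon length, against 2494 with the main transcript; the cause was not tested. Without division by length the shares of Rps27l and Rpl22l1 were 19.9% and 15.0%, and those of Rpl6l and Rpl32l 2.72% and 0.864%. Of 854 fold changes of named members under alternatives, 29 changed sign, with no call. Depth does not limit most members, but Rpl3l, Rpl39l, Rps10, Rpl24 and Rpl36al rest on few counts.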
